A study of Mus musculus with 11 samples.

Results

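The 10 genes described here encode the Fos proteins (Fos, Fosb, Fosl1 and Fosl2), the Jun proteins (Jun, Junb and Jund), Atf3, Egr1 and Myc. They were chosen by symbol as AP-1 subunits and companion early response factors, by a rule that uses no measured value, though with earlier results of these data known, and all 10 were found among the 20893 genes measured. RNA-seq was carried out on total RNA of homogenized whole liver of C57BL/6 mice, in 11 libraries, each referred to as a liver. The 4 control livers came from mice that carried the genotype ROSA26-rtTA-IRES-EGFP; WT and ate doxycycline food for 7 days. The 7 induced livers came from mice that carried ROSA26-rtTA-IRES-EGFP; tetYAP, 4 after doxycycline food for 3 days and 3 after 7 days. In this model a Cre driven by the albumin promoter removes a stop cassette in front of rtTA, so that doxycycline turns on YAP S127A, a form of YAP that escapes inhibition by the Hippo kinases, in hepatocytes. All groups thus received doxycycline and share the rtTA allele, and the controls were matched in time only to the 7-day mice. The ages of the mice were not given in the labels used here.

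AP-1 is a dimeric transcription factor made of a Jun protein paired with a Fos, Jun or ATF protein through leucine zippers. Jun proteins can pair with each other, while Fos proteins need a Jun partner to bind DNA, so the mixture of subunits sets which dimers a cell can form. At enhancers, AP-1 is known to act beside YAP and its DNA-binding partners, the TEAD factors. Many of these genes are immediate early genes, which are transcribed within minutes of a growth factor, cytokine or stress signal and whose mRNAs are short lived. Egr1 is a zinc finger factor of the same early class, and Myc drives ribosome production and growth. In the liver, Jun and Myc are known for their part in regeneration and tumor formation.

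The 7 promoters of these genes in the RefSeq promoter set (Fos, Fosb, Fosl2, Jun, Junb, Jund and Atf3) each matched the mm9 genome at 1 place over their full 300 bases, 250 before and 50 after the transcription start. The 150 bases before the start are shown for Fos, Jun and Atf3, which were among the most increased members and were the only 3 of the 7 windows with a match to the motifs searched. They are written 5′ to 3′ on the gene's strand, and capitals mark the match. The windows lie at chr12:86814690-86814839 (plus strand) for Fos, chr4:94718914-94719063 (minus strand) for Jun and chr1:193007213-193007362 (minus strand) for Atf3, on mm9.
Fos: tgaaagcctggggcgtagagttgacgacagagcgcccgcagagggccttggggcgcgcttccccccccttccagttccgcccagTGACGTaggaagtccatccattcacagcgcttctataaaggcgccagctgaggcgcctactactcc
Jun: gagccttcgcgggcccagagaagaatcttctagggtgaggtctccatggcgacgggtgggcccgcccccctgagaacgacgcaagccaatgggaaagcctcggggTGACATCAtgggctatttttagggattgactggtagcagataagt
Atf3: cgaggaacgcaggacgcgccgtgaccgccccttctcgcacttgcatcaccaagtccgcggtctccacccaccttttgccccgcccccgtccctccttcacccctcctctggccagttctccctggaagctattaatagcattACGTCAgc
The capitals in Fos, at bases -66 to -61, and in Atf3, at bases -8 to -3 on the opposite strand, are TGACGT, the core of the cAMP response element that CREB and ATF proteins bind. This core was found in 7.55% of 32544 different promoter windows of the same length. The capitals in Jun, at bases -45 to -38, are TGACATCA, a site for Jun and ATF dimers that was found in 3.37% of those windows. The other motifs were searched on both strands as well. The AP-1 site TGANTCA (7.79% of all windows), the full element TGACGTCA, which contains TGACGT (1.8%), the Myc site CACGTG (7.17%), the TEAD site GGAATG (14.6%) and the CArG box bound by serum response factor (1.64%) had no match in any of the 7 windows. These are matches of letters and not sites shown to be bound, and bases farther than 250 before the start were not searched.

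Levels are given as eRPKM, a length-corrected read density over exons that the authors normalized within each library. The libraries held between 1251396 and 5941357 reads on genes, and the 7-day livers held at least 5312486 reads each, more than every other liver but control liver 2 (5495697 reads). Of the 7-day livers all had more Xist than Ddx3y RNA, the pattern of females, as had 2 of 4 controls and 2 of 4 livers at 3 days. The column names of 2 of the 3-day livers (1 and 4) and of 7-day liver 2 end in MF, a suffix the labels do not explain. The hepatocyte markers Alb, Ttr, Apoa1, Tat, Cps1, Cyp2e1 and Hnf4a were all detected in every group. Reads on Yap1 itself did not separate the groups. They gave 13.9 to 21.1 eRPKM in controls, 15.3 to 19.3 eRPKM after 3 days and 17.4 to 19.0 eRPKM after 7 days. Whether these reads include RNA of the induced YAP S127A was not tested, so they do not show whether it was induced. The paper reports that the YAP level in this model was already maximal at the earlier time. Cyr61, a direct YAP target, was at 5.76 to 14.4 eRPKM in controls. It was at 26.8 to 53.4 eRPKM after 3 days and 90.5 to 91.4 eRPKM after 7 days. Ctgf, another YAP target, was at up to 14.2 eRPKM in controls and 15.3 to 34.2 eRPKM after 3 days. After 7 days it was at 87.3 to 103 eRPKM. Ankrd1, also a YAP target, was lower in every 3-day liver (0 to 0.299 eRPKM) than in any control (0.457 to 0.879 eRPKM). These 3-day values were near the limit of detection, and no test of the difference is given. All 3-day livers lay below all controls for 321 of 14244 tested genes. After 7 days Ankrd1 was at 15.4 to 20.1 eRPKM. In whole liver, a change in the number of cells of a type and a change in RNA per cell cannot be told apart.

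After 7 days of YAP induction, 7 of the 8 members that could be tested were higher than in control livers: Fos, Myc, Atf3, Jun, Egr1, Fosl2 and Jund. The rises ranged from 2.19-fold for Jund to 15.2-fold for Fos in group means. Junb missed the threshold, and Fosb and Fosl1 were too low for the test across genes, which required 0.5 eRPKM in at least 3 livers. A gene was called when limma gave a Benjamini-Hochberg adjusted p under 0.01 over all 14244 genes tested and the log2 fold change of eRPKM + 0.5 was above 0.5 in size. By the same rule 18% of all tested genes were called higher at 7 days, and 23.8% in either direction. The 2561 genes called higher and 822 lower became 1950 and 1255 with median-ratio size factors and 1865 and 1791 with quantile normalization, with 6 members called under either scaling (Fosl2 was lost). No member was called after 3 days, when 0.0421% of all genes were called. The same 7 members were called higher at 7 days than at 3 days, against 14% of all genes called higher and 19.3% called in either direction. The 2 comparisons with control share the control livers, so their values are given side by side.

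**Figure D1:**
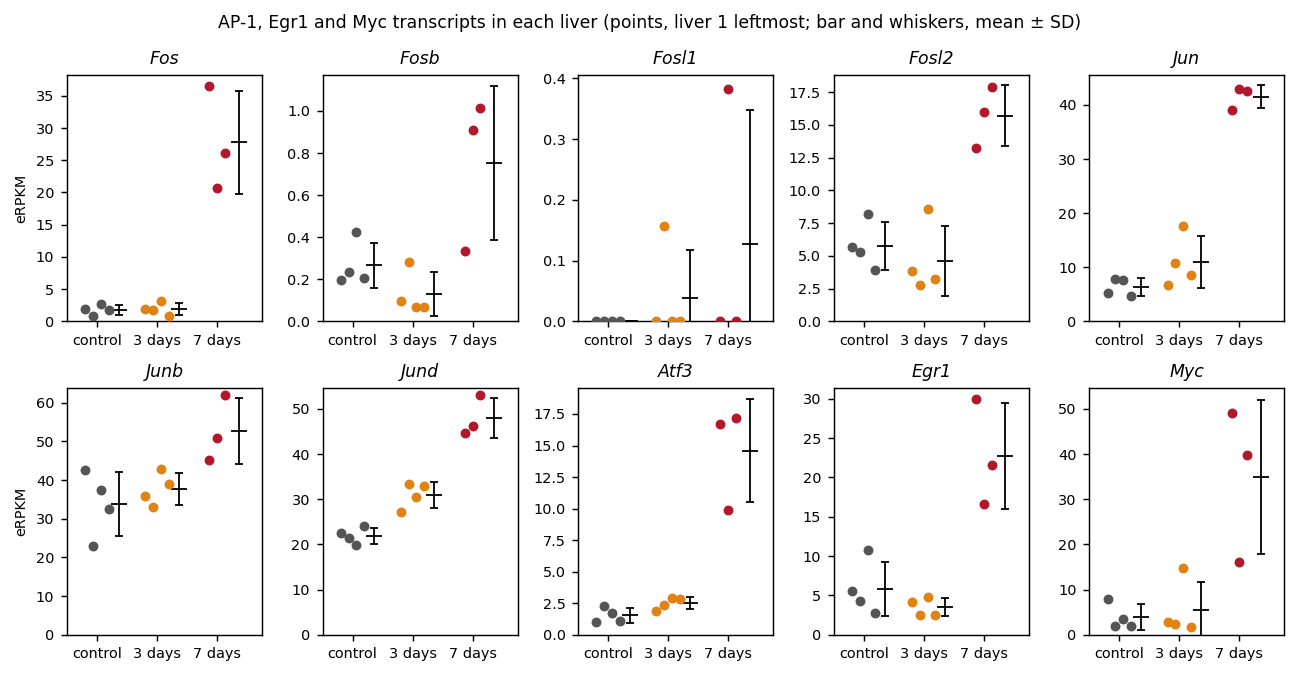
Level of each of the 10 members in eRPKM (vertical axes, different scale per gene) in 4 control livers, 4 livers after 3 days and 3 livers after 7 days of YAP induction; points are livers, bar and whiskers the mean ± SD. All 7-day livers lie above all controls for the 8 members other than Fosb and Fosl1, as was so for 36.7% of all tested genes. The 3-day livers overlap the controls for all members but Jund, and all of them lay above all controls for 3.38% of all tested genes.

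Fos encodes the founding Fos protein, and its mRNA is a standard readout of growth factor signaling. Its level in control livers 1 to 4 was 1.90, 0.843, 2.70 and 1.85 eRPKM, which rested on only 5 to 16 reads per liver. After 3 days it was 1.91, 1.79, 3.15 and 0.881 eRPKM, within or near the range of the controls. After 7 days it was 36.5, 20.7 and 26.1 eRPKM, with 265 to 422 reads, so that the lowest 7-day liver was far above the highest liver of the other groups. Against control the log2 fold change at 7 days came to 3.63 (SE 0.36, limma adjusted p = 1.59e-05) and that at 3 days to 0.05 (SE 0.34, adjusted p = 0.97). Between 7 and 3 days it was 3.58 (SE 0.36, adjusted p = 2.45e-05). Fos lies at chr12:86814840-86818223 (mm9).

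Fosl2, whose product Fra-2 lacks the strong activation domain of Fos, was the main Fos family transcript of control livers, at 5.69, 5.26, 8.24 and 3.90 eRPKM. After 3 days it was 3.84, 2.82, 8.59 and 3.20 eRPKM, where 3 livers lay below all controls and liver 3 above them. After 7 days it was 13.2, 15.9 and 17.9 eRPKM, above every other liver. At 7 days Fosl2 had gained 1.40 on the log2 scale (SE 0.34, limma adjusted p = 0.00564), while its value at 3 days was -0.37 (SE 0.31, adjusted p = 0.658). The call against control was the least stable of the 7. It was lost in 13 of 26 alternatives, among them every fit without a 7-day liver, with values of 0.93 to 1.58 over all 26.

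Fosb and Fosl1, the other Fos family genes, stayed near the limit of detection. Fosb was read at 0.198, 0.234, 0.427 and 0.205 eRPKM in controls, 0.096, 0.283, 0.070 and 0.070 eRPKM at 3 days and 0.336, 0.907 and 1.02 eRPKM at 7 days. Only 13 reads in the 4 control livers and 49 in the 3 livers of 7 days stood behind these values. The 7-day livers all lay above the 3-day livers (exact two-sided permutation p = 0.0286, the smallest that 35 regroupings allow), but 1 of them fell within the range of the controls (exact p = 0.0571). Fosl1 had no read in any control liver, 1 read in 3-day liver 2 and 4 reads in 7-day liver 2, or 0.383 eRPKM. Its exons overlap those of Ccdc85b, and counting without strand cannot separate the reads of the overlap. A change of Fosl1 was not detectable at this depth.

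**Figure D2:**
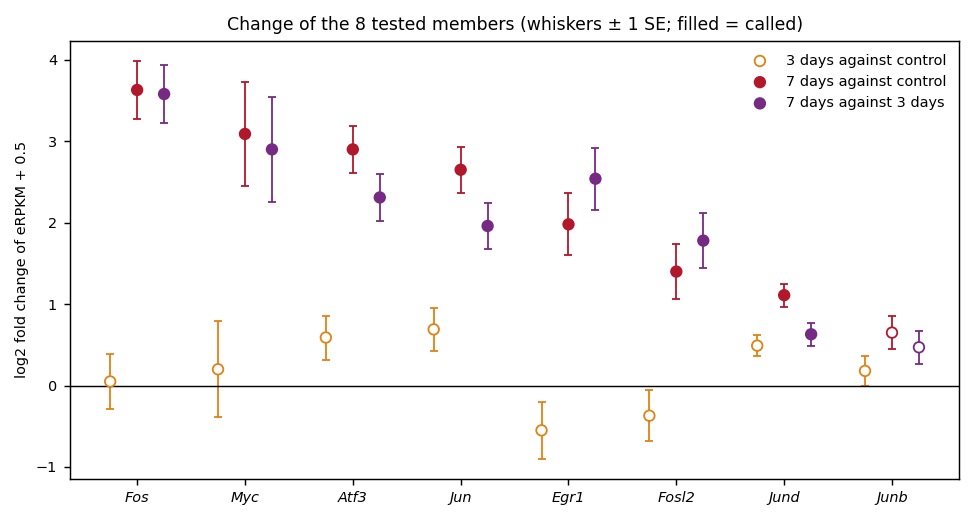
Log2 fold change of eRPKM + 0.5 (vertical axis) of the 8 tested members in the 3 comparisons; whiskers are ± 1 SE from limma and filled points passed the threshold. The members are ordered by the change at 7 days against control, from 3.63 for Fos to 0.65 for Junb, and no point is filled at 3 days.

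Jun, the strongest activator of the Jun proteins, was at 5.23, 7.86, 7.59 and 4.62 eRPKM in control livers. After 3 days it was at 6.74, 10.8, 17.7 and 8.52 eRPKM, so that 3 of 4 livers exceeded all controls, although the change did not pass the test (log2 fold change 0.69, SE 0.26, limma adjusted p = 0.311). After 7 days it was at 39.1, 43.0 and 42.5 eRPKM, the tightest group of any member at that time. This was a log2 fold change of 2.65 (SE 0.28, adjusted p = 2.51e-05) against control and of 1.96 (SE 0.28, adjusted p = 0.000252) against 3 days. Jun lies at chr4:94715725-94718913 (mm9), where the annotation has an overlapping transcript, BC042782.

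Jund, which is known as the steadily expressed Jun protein, moved in steps with little spread. It was at 22.5, 21.3, 19.9 and 24.0 eRPKM in controls, 27.2, 33.4, 30.4 and 32.9 eRPKM at 3 days and 44.7, 46.2 and 53.0 eRPKM at 7 days. The 3 groups did not overlap, and Jund was the only tested member whose 3-day livers all lay above all controls, as was the case for 3.38% of all tested genes. The difference at 3 days reached the smallest p that an exact two-sided permutation test of 4 against 4 livers can give (p = 0.0286), but not the limma threshold (log2 fold change 0.49, SE 0.13, adjusted p = 0.125). Against control, Jund had gained 1.11 on the log2 scale by 7 days (SE 0.14, limma adjusted p = 6.15e-05). Against 3 days the gain was 0.63 (SE 0.14, adjusted p = 0.00415), a call that was lost in 7 of 26 alternatives, among them median-ratio size factors (0.38, adjusted p = 0.0753) and the fit without each 7-day liver. The annotation has a transcript, Gm11175, that overlaps the exons of Jund.

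Junb, which can counter Jun at some targets, was the most abundant member in every group and the tested member with the smallest change in both 7-day comparisons. It was at 42.5, 23.1, 37.4 and 32.6 eRPKM in controls, 35.9, 33.0, 42.7 and 39.0 eRPKM at 3 days and 45.3, 50.8 and 61.9 eRPKM at 7 days. The 7-day livers lay above all others, as was so for 36.7% of all tested genes against control and 31.3% against 3 days. Junb differed from control by 0.65 on the log2 scale at 7 days (SE 0.20, limma adjusted p = 0.0212), which did not pass the threshold of 0.01. With size factors it was 0.38 (adjusted p = 0.196).

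Summed over the Jun family, the level was 62.2 ± 7.58 eRPKM (SD, n = 4) in controls, 79.6 ± 8.72 (n = 4) after 3 days and 142 ± 14.3 (n = 3) after 7 days. The sum of the Fos family was 7.86 ± 2.46, 6.72 ± 3.47 and 44.3 ± 6.13 eRPKM. Jun family transcripts thus outnumbered Fos family transcripts in every liver, by 5.71 to 10.3 times in the control group, 7.69 to 19.3 times in the 3-day group and 2.58 to 3.70 times in the 7-day group. The ranges at 7 days did not overlap those of the other groups (exact two-sided permutation p = 0.0571 for each, where 0.0286 is the smallest p).

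The makeup of each family shifted at 7 days. Jun made up 10.4% ± 3.65 (SD, n = 4) of the Jun family sum in controls, 13.4% ± 4.45 (n = 4) at 3 days and 29.3% ± 2.02 (n = 3) at 7 days (exact two-sided permutation p = 0.0286 against either group). The share of Junb was 53.9% ± 7.15 in controls and 36.9% ± 2.19 at 7 days (exact p = 0.0571), and that of Jund was 35.7% ± 5.08 and 33.8% ± 0.822 (exact p = 0.486). In the Fos family, Fosl2 held 73.5% ± 7.23 of the sum in controls and Fos 23.1% ± 7.36. At 7 days the order was the opposite, with Fos at 61.8% ± 9.77 and Fosl2 at 36.1% ± 8.44 (exact p = 0.0286 for each). These shares are taken within a liver, so that they do not depend on how libraries were scaled to each other. They are shares of RNA and carry no information on protein or on dimers.

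**Figure D3:**
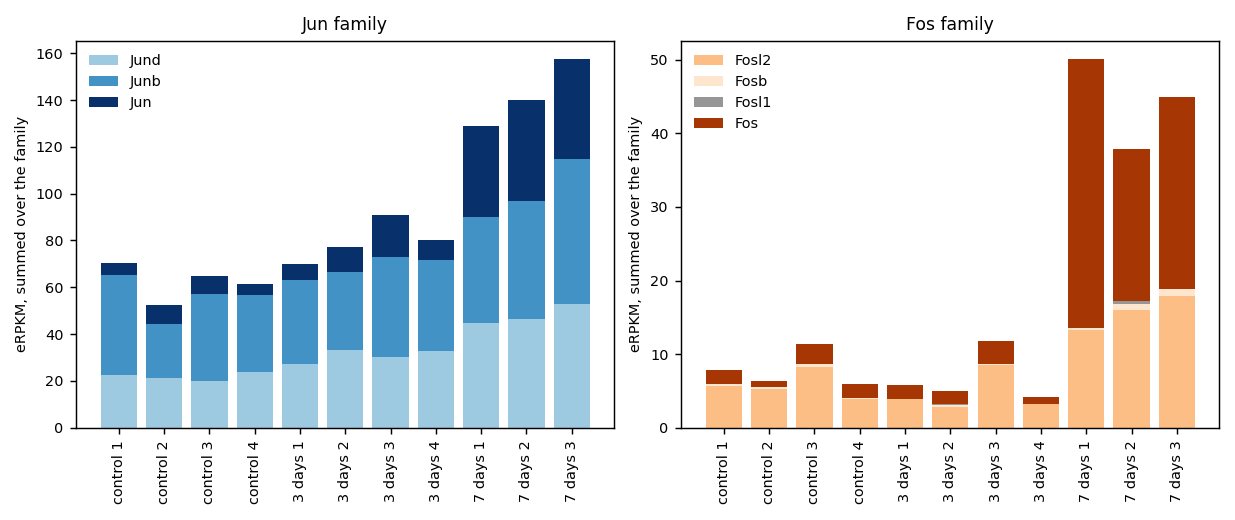
Level in eRPKM of the Jun family (left) and the Fos family (right) in each of the 11 livers (horizontal axis), stacked by gene. The Fos family sum is 4.16 to 11.8 eRPKM in the livers of the control and 3-day groups and 37.9 to 50.1 eRPKM at 7 days, when Fos forms the larger part of every bar.

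Atf3, a stress-induced ATF protein that pairs with Jun proteins and often represses its targets, was at 1.04, 2.30, 1.69 and 1.08 eRPKM in controls, on 3 to 28 reads per liver. At 3 days it was at 1.87, 2.37, 2.95 and 2.82 eRPKM, with 3 of 4 livers above all controls. That difference did not pass the test (log2 fold change 0.59, SE 0.27, limma adjusted p = 0.407). At 7 days it was at 16.7, 9.88 and 17.2 eRPKM, which is a log2 fold change of 2.90 (SE 0.29, adjusted p = 1.59e-05) from control and of 2.31 (SE 0.29, adjusted p = 9.81e-05) from 3 days. Atf3 lies at chr1:192994175-193007219 (mm9).

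Egr1 was at 5.51, 4.31, 10.8 and 2.78 eRPKM in controls, a 3.87-fold range. At 3 days it was at 4.15, 2.52, 4.81 and 2.57 eRPKM, and at 7 days at 30.0, 16.6 and 21.6 eRPKM. Egr1 rose by 1.98 on the log2 scale from control to 7 days (SE 0.38, limma adjusted p = 0.00134) and by 2.54 from 3 to 7 days (SE 0.38, adjusted p = 0.000314). Its value for 3 days against control was -0.55 (SE 0.35, adjusted p = 0.551). In female livers alone, with 2 controls, the change against control was 1.62 and no longer passed the threshold (adjusted p = 0.0183). The annotation has a transcript, Gm17507, that overlaps the exons of Egr1.

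Myc was the most uneven member among livers of 1 group. It was at 8.02, 1.92, 3.57 and 1.87 eRPKM in controls, 2.93, 2.48, 14.9 and 1.70 eRPKM at 3 days and 49.1, 16.0 and 39.7 eRPKM at 7 days. The 3-day liver with 14.9 eRPKM (140 reads) nearly reached the lowest 7-day liver, whereas the other 3-day livers lay within or below the control range. Myc rose by 3.09 on the log2 scale from control to 7 days (SE 0.64, limma adjusted p = 0.00231) and by 2.90 from 3 to 7 days (SE 0.64, adjusted p = 0.00446). From control to 3 days the value was 0.20 (SE 0.59, adjusted p = 0.923). With female livers alone the change against control was 3.35 (adjusted p = 0.0107), and without 7-day liver 1 or 3 it was 2.78 or 2.93 (adjusted p = 0.0147 and 0.0135), none of which passed. The call against 3 days was lost in 10 of 26 alternatives. Myc lies at chr15:61816946-61821929 (mm9).

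The order of the levels was led by Junb and Jund in every group, whose ranges overlapped each other, followed by Jun. Fos held place 7 of the 10 members in controls, place 8 at 3 days and place 5 at 7 days. Myc held place 6 in controls and place 4 at both 3 and 7 days, with 1 liver at 14.9 eRPKM in the 3-day mean. Neighbors in this order from the third to the eighth place had overlapping ranges in every group. Jund and Jun did not overlap in any group.

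**Figure D4:**
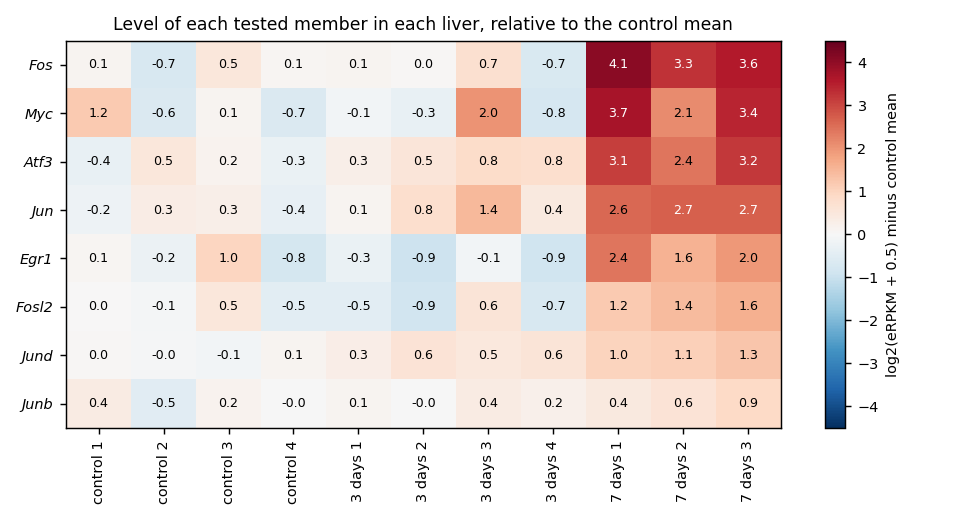
Log2(eRPKM + 0.5) of the 8 tested members in each liver minus the mean of the 4 controls, as color and printed value. Among 3-day livers, liver 3 has the highest value for 7 of the 8 members, and 7-day liver 2 has the lowest value for Fos, Myc, Atf3 and Egr1.

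Some livers were high or low for several members at once, and others were not. At 3 days, liver 3 held the highest value of 7 of the 8 tested members, all but Jund, and the lowest of none. At 7 days, liver 2, whose column name carries the MF suffix, held the lowest value of Fos, Atf3, Egr1 and Myc and the highest of Jun. Liver 1 of that group was highest for Fos, Egr1 and Myc but lowest for Fosl2, Jun, Junb and Jund, and in controls the highest values were spread over all 4 livers. Liver 2 at 7 days was also lowest of its group for the early genes Nr4a1 (5.67 eRPKM, against 22.6 and 23.5) and Btg2 (42.1 eRPKM, against 81.7 and 88.8). It had reads on 19280 genes, against 15809 and 15796 in the other 7-day livers, and the highest summed lymphocyte markers of its group (20.2 eRPKM, against 9.49 and 9.86). The part of these features in the levels was not tested.

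Other immediate early genes were also called at 7 days. Of 33 tested genes of this list, which leaves out the members, 16 were called higher and 1 lower, beside the 18% of all genes called higher, with a median log2 fold change of 1.21 against 0.26 over all genes. Gadd45b, a stress sensor induced by NF-kB and TGF-beta, rose most, by 4.89 (SE 0.81, limma adjusted p = 0.000512). It was at 1.38, 5.15, 2.87 and 0.613 eRPKM in controls, 1.15, 15.4, 23.3 and 24.4 eRPKM at 3 days and 81.7, 54.4 and 90.9 eRPKM at 7 days. At 3 days 3 of its 4 livers were thus above all controls and 1 within their range, and the change did not pass (2.15, SE 0.75, adjusted p = 0.267). Nr4a1, an orphan nuclear receptor, rose by 3.27, Btg2, an antiproliferative gene, by 2.93 and Ier3 by 2.54. Phlda1 was the gene that fell, from a mean of 38.6 to 10.7 eRPKM (log2 fold change -1.72), and is named here after its value was seen. None of the 33 was called at 3 days.

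Among the other partners and relatives of AP-1, 5 of 14 tested genes were called higher at 7 days and none lower (median 0.90), beside 18% of all genes called higher and their median of 0.26. Jdp2, which pairs with Jun proteins and mostly represses, rose by 4.42 (SE 0.42, limma adjusted p = 1.05e-05), more than any member. It was at 1.27, 2.30, 0.457 and 0.439 eRPKM in controls, 1.44, 4.54, 4.48 and 2.84 eRPKM at 3 days and 30.8, 27.2 and 34.1 eRPKM at 7 days. Batf3, a factor best known from dendritic cells, rose by 1.86, the small Maf protein gene Mafk by 1.05 and Maf by 0.91. With quantile normalization Batf3 (1.26) lost the call, and with median-ratio size factors Maf (0.65) lost it. Jdp2 and Mafk kept it under both.

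The genes upstream of the members and the heat shock genes are given beside the 18% of all genes called higher at 7 days and their median of 0.26. Of 15 tested MAP kinase genes only Map3k1 was called (1.05), and the median of the list, 0.13, was below that of all genes. Srf and its coactivator Mkl1, which control serum-responsive promoters, rose by 0.96 and 1.38, as 2 of 6 genes tested. Of 11 feedback and target genes of ERK signaling 3 were called higher, Spry1 (2.36), Etv5 (2.06) and Etv1 (1.10), and none lower. Of 8 heat shock genes, Bag3 (1.62) and Hspb1 (1.46) were called higher. With quantile normalization Srf (0.39), Mkl1 (0.78), Map3k1 (0.71), Etv1 (0.44) and Hspb1 (1.05) lost the call. With median-ratio size factors Srf (0.71), Map3k1 (0.79) and Etv1 (0.86) lost it. Spry1, Etv5 and Bag3 kept it under both.

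Genes known as AP-1 targets had the largest share called of the 9 lists, 12 of 21 tested, all higher, with a median of 1.69. Mmp3, Mmp10 and Mmp13 of this list were too low for the test. Il6, among the 12, passed the filter only with the help of 7-day livers. Its means were 0.277 eRPKM in controls, 0.094 at 3 days and 1.575 at 7 days. The largest changes of the list were those of Mmp9 (4.61), a matrix protease, Plaur (4.11) and Plau (3.43), the urokinase receptor and its ligand, and Lgals3 (3.86), a lectin abundant in macrophages. The part of AP-1 in the levels of the list was not tested. Mmp9 was at 0.159, 0.843, 0.770 and 0.247 eRPKM in controls and 41.8, 9.51 and 29.6 eRPKM at 7 days, again lowest in liver 2. Genes known as Myc targets were called higher in 6 of 30 cases and lower in none (median 0.62), a share near the 18% of all genes called higher. Those with the largest change were Srm (1.62), the spermidine synthase, and the ribosome assembly factors Nop56 (1.54), Nop58 (1.52) and Ppan (1.48). Summed over the 30 genes, the level was 992 to 1137 eRPKM in the control group, 1026 to 1249 in the 3-day group and 1358, 1059 and 1306 at 7 days. None of the Myc targets was called between 7 and 3 days, where the median of the list was 0.38 and that of all genes 0.26. The part of Myc in the levels of these genes was not tested. In the Myc network, Mxd3 (2.18) and Mlxip (1.33) were called higher, as 2 of 13 genes, and neither Max, the partner of Myc, nor another member of that list passed. With median-ratio size factors Srm (1.35) and Ppan (1.22) lost the call. With quantile normalization Ppan (0.96) and Mlxip (0.80) lost it. Nop56, Nop58 and Mxd3 kept it under both.

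**Figure D5:**
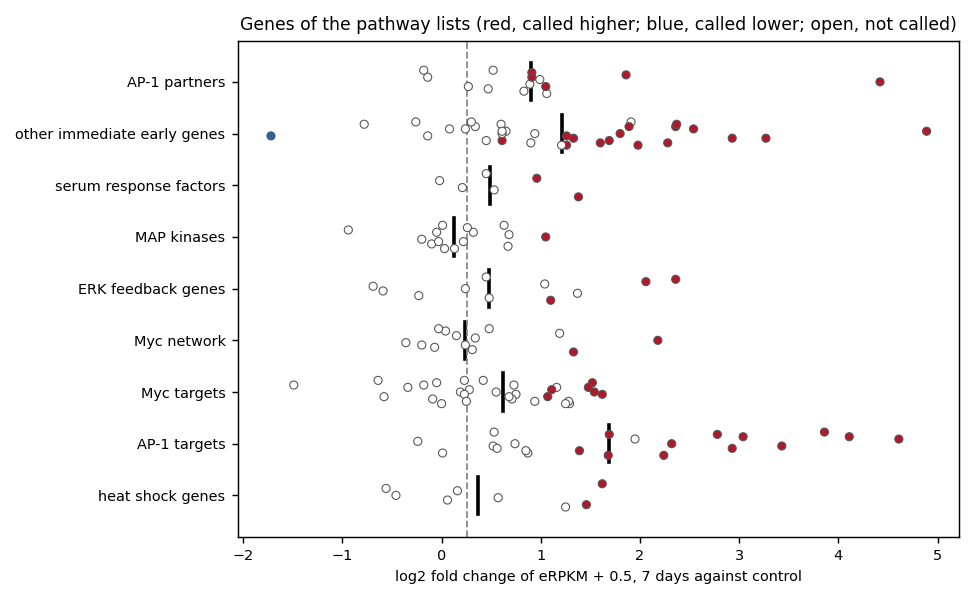
Log2 fold change of eRPKM + 0.5 at 7 days against control (horizontal axis) for the tested genes of 9 lists; red points were called higher, blue lower and open points not called, black bars are list medians and the dashed line is the median of all genes, 0.26. The AP-1 targets and other immediate early genes have the highest medians, 1.69 and 1.21, and MAP kinases the lowest, 0.13.

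Markers of the liver's cell types are given for the same comparison, beside the 18% of all genes called higher. Of 6 macrophage markers measured, 4 rose at 7 days, Marco (3.47), Cd14 (3.38), Cd68 (2.61) and Csf1r (1.81), and the sum of the list was 140 to 277 eRPKM in the control group, 173 to 329 in the 3-day group and 581 to 616 in the 7-day group. Endothelial markers summed to 58.9 to 116 eRPKM in controls and 151 to 182 at 7 days, with 2 of 6 called higher, and neutrophil markers to 18.0 to 28.0 and 35.8 to 50.1 eRPKM, with 1 of 4. Lymphocyte markers summed to 6.67 to 13.9 and 9.49 to 20.2 eRPKM, with 1 of 8 called. Cholangiocyte markers summed to 37.7 to 49.1 eRPKM in controls and 61.6 to 112 at 7 days, with 1 of 5 called. Stellate cell markers summed to 66.9 to 124 and 47.8 to 57.7 eRPKM, with 1 of 7 called lower, and red cell markers to 44.4 to 108 and 26.8 to 32.6 eRPKM, with 1 of 2 called lower. Hepatocyte markers summed to 1477 to 4119 and 1079 to 1211 eRPKM, with 3 of 7 called lower. Among the controls this sum was higher the fewer the reads on genes. Control liver 4 (1251396 reads) had 4119 eRPKM and control liver 2 (5495697 reads) had 1477 eRPKM. The highest eRPKM of any gene ran the same way, at 1024 in control liver 4 and 273 in control liver 2. The part of depth in the lower sums at 7 days was not tested. Of all markers measured, only Mpo was at 0 in every liver of a group, that of 3 days. The part of these cells in the rise of the members was not tested.

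For each called member, the 3 genes with the most similar profile were found among 9315 other tested genes with a mean of at least 5 eRPKM, by the root mean square difference over the 11 livers after the control mean was taken off each log2 profile. For Jun they were Myo1c (0.172), Csf2rb (0.232) and Tead1 (0.246). For Jund they were Cdipt (0.121), Raly (0.136) and Tfdp1 (0.155), and for Atf3 Timd4 (0.239), Acot9 (0.258) and Ankrd23 (0.276). For Fosl2 they were Fnbp1 (0.245), Trrap (0.259) and Map3k8 (0.261), and for Egr1 Fyb (0.363), Card10 (0.393) and Il17ra (0.426). Fos and Myc had looser neighbors. Those of Fos were Timp2 (0.51), S100a11 (0.513) and Ptgr1 (0.526), and those of Myc were Lrrc75a (0.562), Btg2 (0.575) and 1810010H24Rik (0.673). Among the members themselves Jun and Atf3 were the closest pair (0.342), while the member closest to Fos was Myc (0.687).

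Depth, sex and scaling each bear on these calls. The 7-day livers were all female by Xist and all deeper than 3 of the 4 controls and all 3-day livers, so that group, sex and depth cannot be fully told apart. In female livers alone, Fos, Jun, Jund and Atf3 remained called at 7 days against control, with log2 fold changes of 3.73, 2.35, 1.20 and 2.57. That fit called 14.9% of all genes in either direction.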

How the data were processed

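The groups of the 11 libraries were taken from the labels. Per the labels and the study's methods, the authors ran paired reads, with poor bases masked, through TopHat2 2.0.8 on the mm9 genome, ignored strand, and counted them with featureCounts 1.4.5-p1. The gene annotation and the handling of duplicate reads are not given in the sources used here. The deposited unit is eRPKM, the authors' RPKM, scaled within each library. The deposited DESeq2 columns hold the authors' comparison of 7 days with control (mean signal, log2 change and adjusted p-value) and were not used. Values above 0 were whole multiples of a step per gene, and all 177553 of them (100%) came out within 0.1 of a whole read. These reads gave the depths and 1 alternative fit.

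The test was limma 3.58.1 under R 4.3.3, by lmFit and by eBayes with a mean trend, on log2(eRPKM + 0.5) of genes that reached 0.5 eRPKM in 3 or more libraries, a scale that understates the change of low genes. All 3 groups entered 1 fit without covariates. Called genes had a Benjamini-Hochberg adjusted p under 0.01 over all tested genes and an absolute log2 fold change above 0.5. Single values were compared with exact two-sided permutation tests. The test was checked on simulated reads. The members and lists were chosen with earlier results of these data known. Members are all named, of each pathway list up to 4 called genes with the largest change at 7 days, and for each called member the 3 genes of most similar profile. The labels do not say that the libraries of a group came from separate mice, and p-values measure only the spread between these samples, which may be technical. Libraries of a group differed by more than sampling noise (chi-square per gene 3.92 to 27.1). Positions are from GENCODE M1 on mm9, and promoter sequences are from RefSeq (GRCm38.p6), matched to mm9 by exact sequence. Python 3.11.15, numpy 2.4.6, pandas 2.3.3 and matplotlib 3.10.9 were used. Alternatives were other pseudocounts, filters, scalings, covariates, subsets of livers, a replicate block, limma-voom, a looser threshold and leaving out each liver, of which depth and the MF suffix were added after the data were seen.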

Additional observations from a re-analysis of the deposited data

Results flagged for a closer look

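In the test of the difference between 7 and 3 days, 7 members had changed more at the later time, by 3.58 for Fos, 2.90 for Myc, 2.54 for Egr1, 2.31 for Atf3, 1.96 for Jun, 1.78 for Fosl2 and 0.63 for Jund on the log2 scale (limma, adjusted p under 0.01). Of 35 groups of 4 livers examined, over the members and the family sums and shares, 4 held a liver that stood apart by Dixon's criterion (limit 0.829 of the range), where chance gives about 1 in 20. Myc in 3-day liver 3, at 14.9 eRPKM, was separated from the other 3-day livers by 0.906 of the range. The other 3 rest on few reads. Fosb stood apart in control liver 3 (0.844 of the range, 4 reads) and in 3-day liver 2 (0.875, 4 reads), and Fosl1 in 3-day liver 2 (1.0, 1 read).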

How the results depend on the processing

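The count of called members was 0 at 3 days under every alternative run. Against the 7 called in each of the other comparisons, it was 4 against control and 4 against 3 days in female livers only, 4 against control with log2 depth as a covariate, and 3 against 3 days in livers without the MF suffix. The share of all genes called, 23.8% against control and 19.3% against 3 days in the main fit, fell as well. In female livers it was 14.9% and 10%. It was 11.8% against control with depth as a covariate and 6.2% against 3 days without the MF livers. Leaving out each liver gave 4 to 7 against control, lowest without 7-day liver 1, and 4 to 7 against 3 days, lowest without 7-day liver 3. In these lowest fits 15.7% of all genes were called against control and 9.91% against 3 days. Of the 50 genes called over the 9 pathway lists at 7 days against control, 33 were called in female livers only, 26 with depth as a covariate and 76 at a looser threshold (adjusted p under 0.05, any size of change). Of the 36 against 3 days, the counts were 22 in female livers, 19 without the MF livers and 68 at that threshold. The looser threshold called 37.8% of all genes against control and 35.7% against 3 days. Leaving out each liver gave 33 to 56 list genes against control, 22 to 51 against 3 days, lowest without 7-day liver 3, and 0 to 1 at 3 days against control. The direction of Fos and Myc at 3 days against control, near 0, turned in fits without 1 liver, with a range of -0.19 to 0.29 for Fos and -0.41 to 0.59 for Myc. The Fos family sum at 3 days against control, -1.15 eRPKM, became 0.567 without the MF livers, and leaving out each liver gave -2.84 to 0.019. All other member directions were kept. Over 624 recomputed member values, 575 kept direction and side of the threshold, 43 lost the call and 1 gained it, and of 676 values of named list genes 81 lost the call. Median-ratio size factors moved the median log2 fold change of all genes at 7 days from 0.26 to 0.02, and quantile normalization to -0.06. Replicate numbers did not pair the samples, since deviations of same-numbered livers correlated between -0.22 and 0.27. With a replicate block 7 members were called in each 7-day comparison and 0 at 3 days. Of all genes, that fit called 19.1% at 7 days against control and 13.9% against 3 days.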
